A study of Mus musculus with 6 samples.

Results

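The Wnt pathway genes of the mouse lung were followed here in animals that breathed hydrogen gas. The members were all probe sets of the array whose annotation named exactly 1 gene symbol and whose symbol was a Wnt, frizzled (Fzd), Sfrp or Dkk gene, or was Lrp5, Lrp6, Axin2, Lef1, Tcf7, Nkd1, Lgr5, Lgr6, Apcdd1, Wif1, Notum, Rspo1, Rspo2, Rspo3, Rnf43, Znrf3 or Ctnnb1. The rule gave 86 of 45037 probe sets and 52 of 17097 genes, and it used no measured value. No probe set of Sfrp4 or Tcf7 met it, and those genes were not analysed here. The control group was 3 male BALB/c mice, an inbred strain, kept in air. The hydrogen group was 3 male BALB/c mice kept in 2% hydrogen and 98% air. Age was given as 10 weeks and the exposure lasted 3 weeks. Total RNA from lungs kept in RNAlater was labelled and hybridised to MG-430 PM arrays, 1 array for each of the 6 samples. Values were log2 expression values per probe set, and a difference is the hydrogen mean minus the control mean on that scale, n = 3 in each group. The design asked how the lung's gene expression differed after hydrogen breathing.

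Wnt proteins are secreted lipid-modified ligands. In the canonical pathway they bind a frizzled receptor together with Lrp5 or Lrp6, which halts the breakdown of beta-catenin (Ctnnb1), and beta-catenin then acts in the nucleus with the transcription factors Lef1 and Tcf7. Other Wnt proteins, among them Wnt5a, also act through beta-catenin-independent routes such as planar polarity. Sfrp proteins, Wif1, Dkk1 and Notum restrain the ligands or the receptors outside the cell, the ligases Rnf43 and Znrf3 remove frizzled receptors from the surface, and R-spondins acting with Lgr receptors counter those ligases. Axin2, Nkd1, Notum, Lgr5, Apcdd1, Rnf43 and Znrf3 are among the genes that the pathway itself can induce. In the lung, Wnt2 and Wnt2b take part in specifying the organ, Wnt7b is a ligand of the developing airway epithelium, and Wnt5a is made largely by mesenchyme.

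The arrays carried lung transcripts. Surfactant protein C (Sftpc) averaged 13.15 ± 0.01 (SD, n = 3) in control and 13.17 ± 0.02 (SD, n = 3) in hydrogen lungs, and the club cell secretoglobin Scgb1a1 averaged 13.22 ± 0.01 and 13.23 ± 0.02. The endothelial cadherin Cdh5 averaged 9.94 ± 0.04 and 10.01 ± 0.10. The alveolar type 1 marker Ager was lower by a small step, at 12.67 ± 0.02 against 12.52 ± 0.03 (limma with Benjamini-Hochberg adjustment over all probe sets, adjusted p = 0.0437). The whole distribution of values also differed between the groups. Array medians were 4.75 to 4.76 in control and 4.84 to 4.85 in hydrogen samples, and array SDs were 1.90 to 1.92 and 1.80 to 1.81. With a call set throughout as an adjusted p under 0.05, 24.3% of all probe sets were higher and 22.8% lower after hydrogen. A count of called members therefore has to be read against those shares. These are whole-lung RNA samples, so fewer cells of a type and less RNA per cell cannot be told apart.

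Among the Wnt pathway probe sets, 26 of 86 (30.2%) were higher and 14 of 86 (16.3%) lower in the hydrogen group, against 24.3% and 22.8% of all probe sets. The median difference was 0.08 over the members and 0.02 over all probe sets, and single members ran from -0.96 (Fzd5) to 0.66 (Sfrp5). In 30 member probe sets all 3 hydrogen mice lay above all 3 control mice and in 13 they lay below, where 30.9% and 26.4% of all probe sets did so. Counted by gene, 21 of 52 genes had a probe set called higher, 12 had a probe set called lower, and 21 had no call. Fzd5 and Nkd1 had calls in both directions. Without hydrogen replicate 2 the count of higher members was 17 (19.8%), while the share of all probe sets called higher went from 24.3% to 17.7%. Without control replicate 1 or hydrogen replicate 1 the count was 20.

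**Figure D1:**
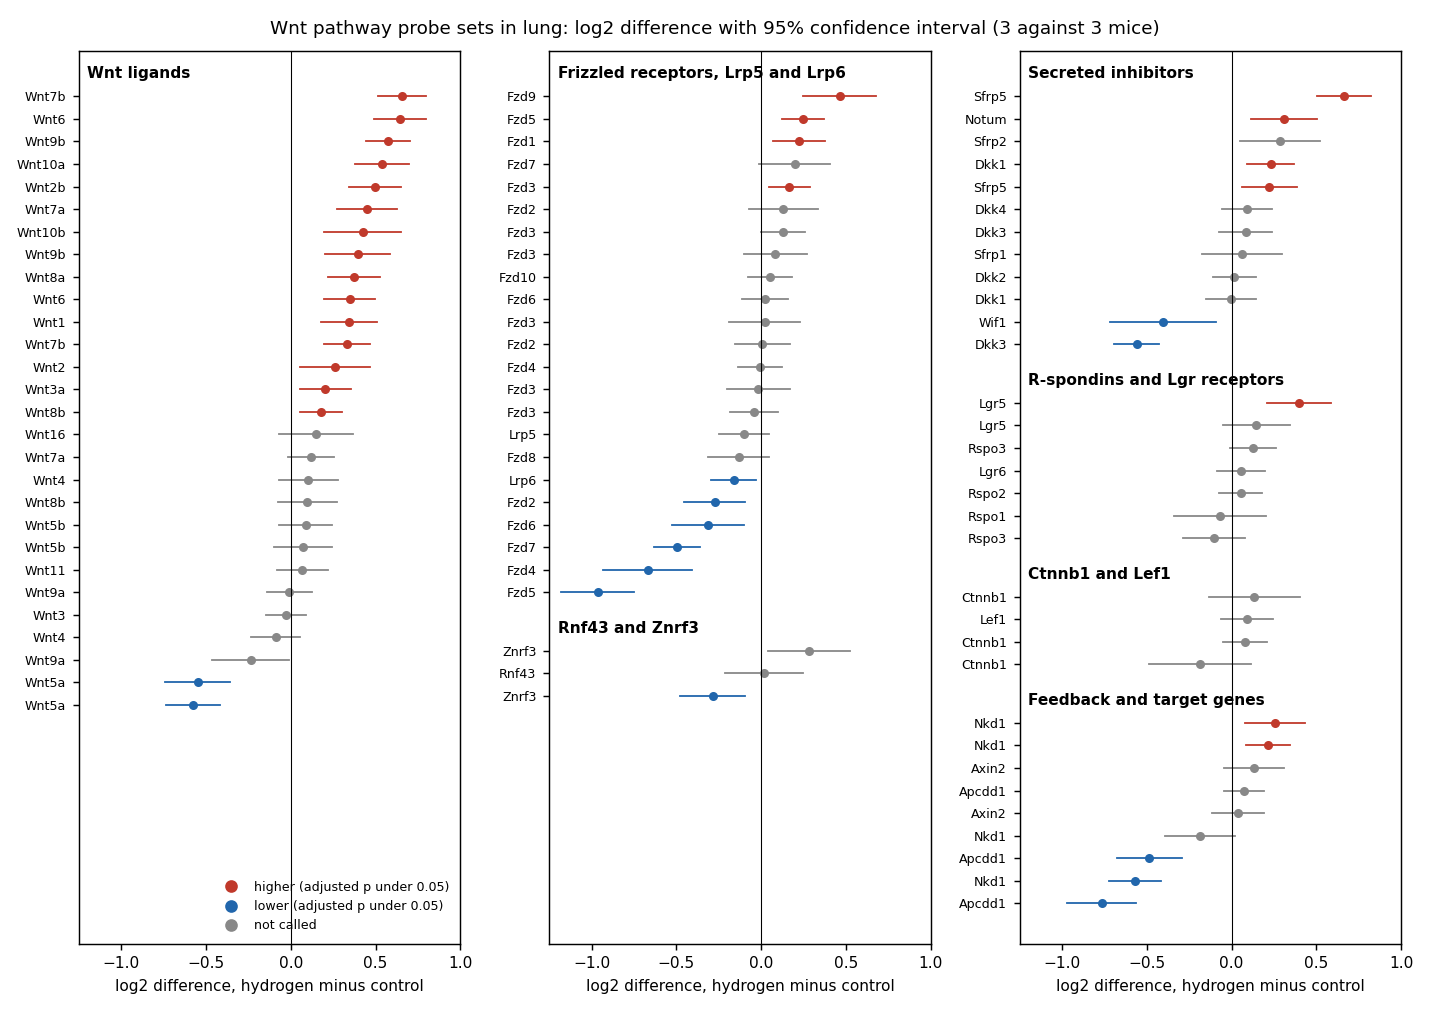
Each point is the log2 difference, hydrogen minus control, of a Wnt pathway probe set, with a line for its 95% confidence interval, grouped by role. Points called higher or lower by limma are coloured. The Wnt ligands reach from -0.58 to 0.65 with 15 of 28 called higher, whereas the frizzled receptors with Lrp5 and Lrp6 reach from -0.96 to 0.46 with 4 called higher and 6 lower. Of the 15 higher ligand probe sets, 11 were at or below the array's median brightness. Of all probe sets, 24.3% were called higher and 22.8% lower.

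The Wnt ligands were the group of members called higher most often. Of 28 ligand probe sets, 15 were higher and 2 lower, with a median difference of 0.19. At or below the array's median brightness, 11 of 18 ligand probe sets were higher and 0 lower, beside 32.0% and 7.31% of all such probe sets. These 11 were every higher probe set of Wnt1, Wnt2b, Wnt6, Wnt8a, Wnt8b, Wnt9b, Wnt10a and Wnt10b, and 1420891_PM_at of Wnt7b. Whether such dim transcripts were detected was not tested. Above the median brightness, 4 of 10 were higher and 2 lower, beside 16.7% and 38.2%. Of the 19 Wnt genes, Wnt1, Wnt2, Wnt2b, Wnt3a, Wnt6, Wnt7a, Wnt7b, Wnt8a, Wnt8b, Wnt9b, Wnt10a and Wnt10b had a probe set called higher, 12 in all. Wnt5a alone was called lower. The direction of the median was the same under the 3 other scalings, with 12 higher and 2 lower after cyclic loess, 14 and 2 after a renewed quantile normalisation, and 12 and 4 after centring each array on its median. Of all probe sets, cyclic loess gave 17.0% higher and 18.4% lower, renewed quantile normalisation 18.7% and 16.8%, and median centring 14.2% and 32.4%.

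Wnt7b had the largest ligand difference. Its probe set 1420892_PM_at read 6.01, 6.03 and 6.18 in the control mice and 6.75, 6.72 and 6.71 in the hydrogen mice. The groups lay apart, and the hydrogen level was 1.57-fold the control level (log2 difference 0.65 ± 0.06 SE, limma adjusted p = 0.000311). A second Wnt7b probe set, 1420891_PM_at, was also higher (0.33, and 0.19 after cyclic loess). Wnt7a, its close paralogue, read 6.20, 6.24 and 6.42 in control and 6.83, 6.73 and 6.64 in hydrogen mice with probe set 1447647_PM_at (0.45 ± 0.08 SE, limma adjusted p = 0.00253). The other Wnt7a probe set differed by 0.12 and was not called.

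Wnt6, another secreted ligand, read 4.03, 4.01 and 4.14 in control and 4.69, 4.62 and 4.80 in hydrogen mice with probe set 1435980_PM_x_at, a type that can share probes with other transcripts (0.64 ± 0.07 SE, limma adjusted p = 0.000403). Its other probe set was higher by 0.35, and by 0.22 after cyclic loess. Wnt9b, a ligand known from kidney development, read 4.37, 4.25 and 4.37 against 4.88, 4.91 and 4.91 (0.57 ± 0.06 SE, limma adjusted p = 0.000353), and its other probe set was higher by 0.39, a call lost after cyclic loess (0.25). In both genes every hydrogen mouse exceeded every control mouse with either probe set.

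Wnt10a and Wnt10b, canonical ligands of skin and fat, were both higher, with probe sets at or below the array's median brightness. There 32.0% of all probe sets were higher. Wnt10a read 3.39, 3.35 and 3.56 in control and 3.93, 3.94 and 4.04 in hydrogen mice (0.54 ± 0.07 SE, limma adjusted p = 0.00084). Wnt10b read 4.33, 4.67 and 4.35 against 4.82, 4.99 and 4.81 (0.42 ± 0.10 SE, limma adjusted p = 0.00904). Control replicate 2 was the highest control mouse for Wnt10b and still lay below all hydrogen mice. After cyclic loess the differences were 0.44 for Wnt10a and 0.29 for Wnt10b, the latter near the threshold (limma adjusted p = 0.0494).

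Of the ligands that specify the lung, Wnt2b read 4.03, 4.01 and 3.84 in control and 4.40, 4.46 and 4.51 in hydrogen mice (0.50 ± 0.07 SE, limma adjusted p = 0.000985). Wnt2 read 7.12, 6.89 and 7.16 against 7.27, 7.46 and 7.22 (0.26 ± 0.09 SE, limma adjusted p = 0.0443). The Wnt2 groups did not overlap, but the call was near the threshold and was lost in 6 alternative fits, among them the fits that left out replicate 1 or 2 of either group. Wnt3a, a strong activator of beta-catenin, was higher by 0.20 and its call was lost in 6 alternative fits, though after cyclic loess it was called at 0.35. Smaller calls came from Wnt8a (0.37), Wnt1 (0.34) and Wnt8b (0.18 with 1 of its 2 probe sets). The Wnt8b call was lost in 8 alternative fits, among them the 3 other scalings, and the Wnt1 call was lost after cyclic loess (0.22). Wnt3, Wnt4, Wnt5b, Wnt9a, Wnt11 and Wnt16 had no call, with differences from -0.24 (Wnt9a) to 0.15 (Wnt16).

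Wnt5a moved the other way with both of its probe sets. The first, 1436791_PM_at, read 5.65, 5.60 and 5.43 in control and 4.94, 5.02 and 4.99 in hydrogen mice (-0.58 ± 0.07 SE, limma adjusted p = 0.000617). The second, 1448818_PM_at, read 5.15, 5.35 and 5.03 against 4.62, 4.69 and 4.57 (-0.55 ± 0.08 SE, limma adjusted p = 0.00153). All hydrogen mice lay below all control mice in both, and the differences after cyclic loess were -0.62 and -0.66.

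**Figure D2:**
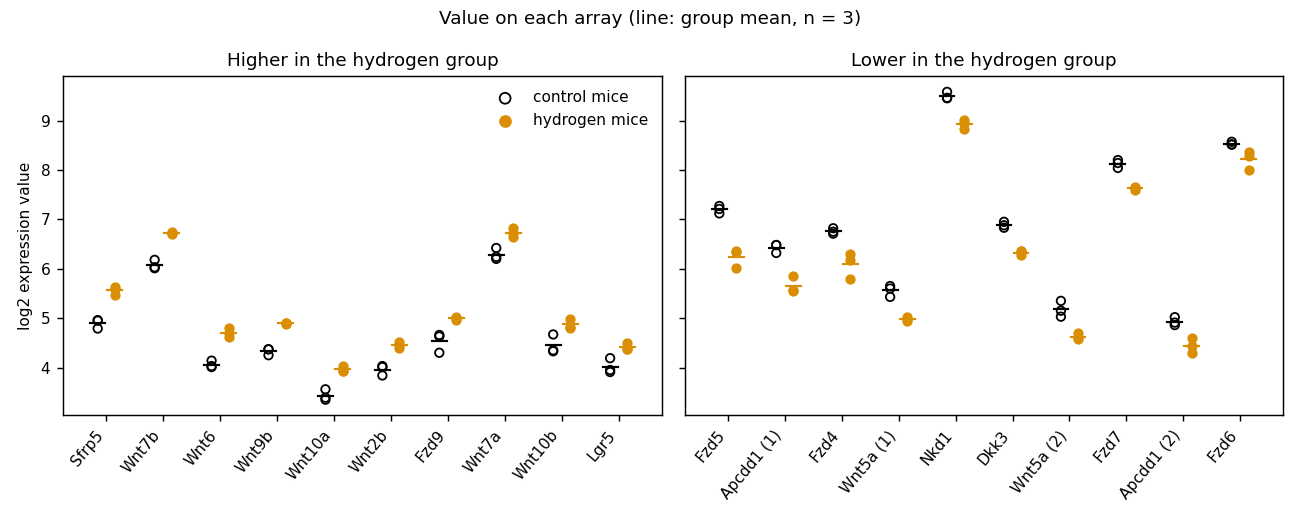
Log2 expression value on each array for the 10 called member probe sets with the largest difference in each direction, among those whose groups do not overlap; open circles are control mice, filled circles hydrogen mice, and lines are group means (n = 3). For Wnt7b the hydrogen mice sit at 6.71 to 6.75 above the control mice at 6.01 to 6.18, and for Fzd5 they sit at 6.02 to 6.36 below 7.12 to 7.27.

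Frizzled receptors, the membrane proteins that bind Wnt ligands, had calls in both directions. The frizzled genes, Lrp5 and Lrp6 had 23 probe sets. Of these 4 were higher (17.4%) and 6 lower (26.1%), beside 24.3% and 22.8% of all probe sets. Their median was 0.01 on the deposited values, -0.10 after cyclic loess, and -0.08 after a renewed quantile normalisation or median centring. After cyclic loess 1 was higher (4.35%) and 4 lower (17.4%), beside 17.0% and 18.4% of all probe sets. Of the 10 frizzled genes, Fzd2, Fzd4, Fzd5, Fzd6 and Fzd7 had a probe set called lower and Fzd1, Fzd3, Fzd5 and Fzd9 had one called higher. Fzd8 and Fzd10 had no call. All 6 probe sets called lower were among the 11 above the array's median brightness, and all 4 called higher were among the 12 at or below it. Of all probe sets, 38.2% above that brightness were lower and 32.0% at or below it were higher.

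Fzd5 held the largest difference of any member. Its probe set 1455604_PM_at read 7.12, 7.21 and 7.27 in control and 6.33, 6.02 and 6.36 in hydrogen mice, so that the hydrogen level was 0.513 of the control level (-0.96 ± 0.09 SE, limma adjusted p = 0.000337). A second Fzd5 probe set, 1422937_PM_at, went up from 4.37, 4.32 and 4.40 to 4.61, 4.64 and 4.58 (0.25 ± 0.05 SE, limma adjusted p = 0.0064). The second call was lost after cyclic loess and after renewed quantile normalisation, and the first was not.

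Fzd4, the receptor for the ligand Norrin in vessels as well as for Wnt proteins, read 6.82, 6.71 and 6.75 in control and 5.80, 6.18 and 6.29 in hydrogen mice (-0.67 ± 0.12 SE, limma adjusted p = 0.00245). Fzd7 read 8.14, 8.20 and 8.04 against 7.65, 7.60 and 7.64 (-0.50 ± 0.06 SE, limma adjusted p = 0.000623). After cyclic loess Fzd7 was at -0.30 and still called. The other probe sets of Fzd4 (-0.01) and Fzd7 (0.20) were not called. Fzd6, best known in planar polarity, read 8.51, 8.57 and 8.52 against 8.00, 8.37 and 8.29 (-0.31 ± 0.09 SE, limma adjusted p = 0.0235). Hydrogen replicate 1 was the lowest mouse for both Fzd4 and Fzd6. The Fzd6 call was lost without control replicate 1 or 2, after cyclic loess and after renewed quantile normalisation, and the Fzd4 call was kept in all 15 alternative fits.

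Fzd9 was the frizzled gene with the largest rise. It read 4.30, 4.63 and 4.66 in control and 5.00, 5.02 and 4.96 in hydrogen mice (0.46 ± 0.09 SE, limma adjusted p = 0.00498). The control mice spread more than the hydrogen mice, and the groups stayed apart. Fzd1 was called at 0.22, Fzd3 at 0.17 with 1 of 6 probe sets, and Fzd2 at -0.27 with 1 of 3. Each of these calls was lost after cyclic loess. Of the co-receptors that complete the canonical receptor, Lrp6 differed by -0.16 (limma adjusted p = 0.0434, lost in 10 alternative fits) and Lrp5 by -0.10 without a call. Lrp5 was called lower after cyclic loess (-0.24) and after renewed quantile normalisation (-0.21).

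Promoters were read for Lef1 and Tcf motifs, since several members are known targets of those factors. Windows of 250 bases before the start were taken from a table of RefSeq starts on the mouse assembly GRCm38.p6, and 33 of the 52 member genes were matched in that table. The letters searched, on both strands, were CTTTGAA with either A or T allowed at each of its last 2 positions. They were found in 5 of 33 member genes (15.2%) and in 4527 of 27025 genes with a window (16.8%). The median GC content of the windows was 66.4% for members and 52.4% for all. The 5 were Dkk1, Fzd7, Lef1, Wnt11 and Wnt5b, and Axin2 had no match in this window. In Lef1, Wnt11 and Wnt5b the match lay before 1 of 4, 1 of 2 and 1 of 3 starts. The 19 member genes without a window were not searched, among them Apcdd1, Lgr5, Notum, Znrf3, Wnt5a and Wnt7b. Dkk1 and Fzd7 are shown because they had both a match and a called probe set, Dkk1 higher on the deposited values but not after rescaling, and Fzd7 lower. Capitals mark the matches, which start 117 and 98 bases before the start of Dkk1 and 130 before that of Fzd7. Dkk1 lies on the minus strand at chr19:30549497-30549746 and Fzd7 on the plus strand at chr1:59481897-59482146, each printed 5′ to 3′ along its gene.
Dkk1: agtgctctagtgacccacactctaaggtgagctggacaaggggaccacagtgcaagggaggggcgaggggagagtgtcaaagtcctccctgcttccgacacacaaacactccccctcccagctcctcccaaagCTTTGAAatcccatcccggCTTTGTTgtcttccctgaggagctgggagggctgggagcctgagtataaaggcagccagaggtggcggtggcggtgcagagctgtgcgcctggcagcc
Fzd7: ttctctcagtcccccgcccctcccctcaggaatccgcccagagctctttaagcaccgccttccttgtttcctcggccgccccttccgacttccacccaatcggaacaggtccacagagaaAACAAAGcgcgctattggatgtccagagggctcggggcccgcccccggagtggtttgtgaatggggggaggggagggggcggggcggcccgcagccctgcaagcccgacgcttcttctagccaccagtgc

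The secreted inhibitors had 4 of 12 probe sets called higher (33.3%) and 2 lower (16.7%), beside 24.3% and 22.8% of all probe sets. Their median was 0.09. After cyclic loess or renewed quantile normalisation 2 were higher and 1 lower. Sfrp5, which binds Wnt ligands away from their receptors, had the largest rise on the deposited values, and after cyclic loess it was at 0.61 against 0.80 for Wnt7b. Probe set 1423023_PM_at read 4.79, 4.96 and 4.95 in control and 5.59, 5.63 and 5.47 in hydrogen mice, a 1.58-fold difference (0.66 ± 0.07 SE, limma adjusted p = 0.000416). The other Sfrp5 probe set was higher by 0.22, a call lost in 7 alternative fits. Sfrp2 differed by 0.28 and narrowly missed the call (limma adjusted p = 0.0511), and Sfrp1 differed by 0.06.

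Dkk3, a Dickkopf relative that differs from Dkk1 in its binding to Lrp6, gave a call with 1 of 2 probe sets. Probe set 1417312_PM_at read 6.95, 6.88 and 6.83 in control and 6.36, 6.27 and 6.35 in hydrogen mice (-0.56 ± 0.06 SE, limma adjusted p = 0.000399). Probe set 1448669_PM_at, annotated to the same transcript, differed by 0.08 and was not called, and after cyclic loess it was called higher at 0.28. Dkk1, which blocks Lrp5 and Lrp6, was higher by 0.23 with 1 of 2 probe sets, a call lost in 5 alternative fits, among them the 3 other scalings (0.13 after cyclic loess). Dkk2 and Dkk4 had no call.

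Notum, an enzyme that removes the lipid from Wnt proteins, read 4.72, 4.58 and 4.86 in control and 4.94, 5.15 and 5.00 in hydrogen mice (0.31 ± 0.09 SE, limma adjusted p = 0.0182). Its call was lost in 5 alternative fits, among them those without control replicate 2 or hydrogen replicate 2. Wif1, which binds Wnt proteins directly, read 6.30, 6.01 and 5.78 against 5.81, 5.64 and 5.43 (-0.40 ± 0.14 SE, limma adjusted p = 0.04). The Wif1 groups overlapped, since hydrogen replicate 1 lay above control replicate 3, and the call was lost in 6 alternative fits.

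R-spondins and their Lgr receptors, which amplify Wnt signals, gave 1 call among 7 probe sets, higher (14.3%). Of all probe sets 24.3% were higher and 22.8% lower. Lgr5, a stem cell marker in several epithelia, read 3.91, 3.95 and 4.19 in control and 4.37, 4.50 and 4.37 in hydrogen mice with probe set 1450988_PM_at (0.40 ± 0.08 SE, limma adjusted p = 0.00571). The call was kept in all 14 alternative fits that held the probe set, at 0.26 after cyclic loess, and the other Lgr5 probe set differed by 0.15 without a call. Both Lgr5 probe sets were at or below the array's median brightness. Rspo3 with probe set 1455607_PM_at was called lower after cyclic loess (-0.226) and renewed quantile normalisation (-0.225). On the deposited values Rspo1, Rspo2, Rspo3 and Lgr6 had differences from -0.10 to 0.13, none called. Of the ligases they oppose, Znrf3 read 7.63, 7.36 and 7.34 in control and 7.19, 7.09 and 7.19 in hydrogen mice with its brightest probe set (-0.29 ± 0.08 SE, limma adjusted p = 0.023), a difference of -0.09 after cyclic loess and then not called. Without hydrogen replicate 2 the Znrf3 call was lost too. The other Znrf3 probe set differed by 0.28 the other way without a call (limma adjusted p = 0.0579), and the mean of both differed by -0.0033. Rnf43 read 4.28, 4.30 and 4.25 against 4.06, 4.49 and 4.33, with hydrogen mice on both sides of the control mice (0.02 ± 0.10 SE, limma adjusted p = 0.903), and its sign turned under the 3 other scalings.

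Neither beta-catenin nor Lef1 was called. The brightest of the 3 Ctnnb1 probe sets read 11.70, 11.64 and 11.66 in control and 11.81, 11.75 and 11.68 in hydrogen mice (0.08, 95% confidence interval -0.05 to 0.21, limma adjusted p = 0.275), and after median centring it was at -0.01. The other Ctnnb1 probe sets differed by 0.13 and -0.19. Lef1 read 3.66, 3.46 and 3.55 against 3.66, 3.69 and 3.59 (0.09 ± 0.07 SE, limma adjusted p = 0.293), with the sign turned after cyclic loess and renewed quantile normalisation. Transcript levels do not report the amount of beta-catenin protein, which is set by its breakdown.

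The feedback genes did not move together. Axin2, the scaffold gene most often read as a canonical Wnt target, had 6.51, 6.52 and 6.64 in control and 6.50, 6.68 and 6.60 in hydrogen mice with its brighter probe set. The groups overlapped and the difference was 0.04 (95% confidence interval -0.12 to 0.19, limma adjusted p = 0.678), with a call at 0.22 after renewed quantile normalisation, 0.20 without a call after cyclic loess, and -0.05 after median centring. The other Axin2 probe set differed by 0.13 and was not called.

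Apcdd1, a membrane inhibitor of the pathway, was lower with 2 of 3 probe sets. Probe set 1449070_PM_x_at read 6.48, 6.48 and 6.32 in control and 5.55, 5.58 and 5.85 in hydrogen mice (-0.77 ± 0.09 SE, limma adjusted p = 0.000574). It is of the type that can share probes with other transcripts. Probe set 1418382_PM_at read 4.86, 5.02 and 4.91 against 4.30, 4.43 and 4.60 (-0.49 ± 0.08 SE, limma adjusted p = 0.00246). In both the hydrogen mice lay below all control mice, with hydrogen replicate 3 the nearest to them. The third Apcdd1 probe set, annotated to the same transcript as both, differed by 0.07 and was not called.

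Nkd1, which antagonises the pathway by binding Dishevelled, had 4 probe sets with 3 outcomes. The brightest, 1429506_PM_at, read 9.45, 9.58 and 9.46 in control and 9.01, 8.94 and 8.83 in hydrogen mice (-0.57 ± 0.07 SE, limma adjusted p = 0.000595). Probe set 1429507_PM_at, annotated to the same transcript, read 5.85, 5.94 and 5.95 against 6.10, 6.11 and 6.18 (0.22 ± 0.06 SE, limma adjusted p = 0.0144). Probe set 1440446_PM_at was also higher (0.25, limma adjusted p = 0.0269), reading 4.38, 4.50 and 4.65 against 4.84, 4.72 and 4.73, and 1417278_PM_a_at differed by -0.19 without a call. The call of 1440446_PM_at was lost in 7 alternative fits and stood at 0.12 after cyclic loess, where 1429507_PM_at was called at 0.31. So the sign of Nkd1 depended on the probe set that was read.

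Across the 25 member genes with several probe sets, 5 had every probe set called the same way: Wnt5a lower, and Wnt6, Wnt7b, Wnt9b and Sfrp5 higher. In 12 only part was called, with no call the other way, 6 had no call, and Fzd5 and Nkd1 had opposite calls. The remaining 27 genes had 1 probe set each, so that no second reading exists for Wnt10a, Wnt10b, Wnt2b or Fzd9.

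**Figure D3:**
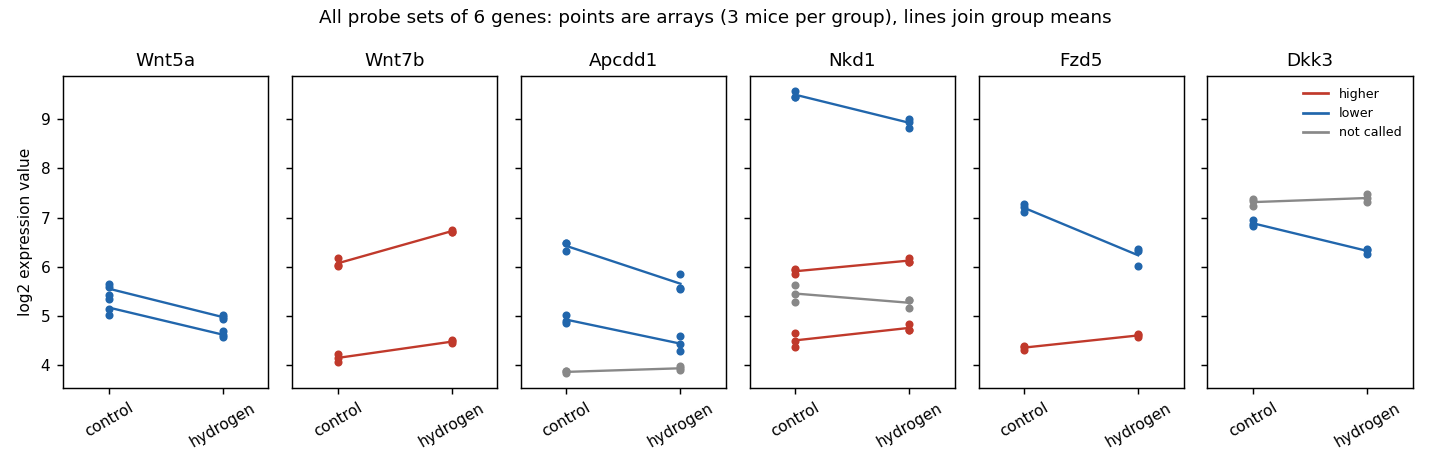
Log2 expression value of every probe set of Wnt5a, Wnt7b, Apcdd1, Nkd1, Fzd5 and Dkk3 in control and hydrogen mice; points are arrays and lines join group means. The Wnt5a and Wnt7b probe sets slope together, whereas the Nkd1 and Fzd5 probe sets slope in both directions.

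The size and sign of a difference went with a probe set's brightness over the whole array. When all probe sets were ordered by mean log2 value and cut into deciles, the median difference went from 0.15 in the fourth decile to -0.23 in the ninth. Of members at or below the median value of 4.80, 19 of 48 were higher and 1 lower, beside 32.0% and 7.31% of all such probe sets. Of members above it, 7 of 38 were higher and 13 lower, beside 16.7% and 38.2%. Cyclic loess, which removes such a trend between arrays, left 17 members higher and 11 lower, beside 17.0% and 18.4% of all probe sets. Of the 26 higher calls 16 were kept, and of the 14 lower calls 9 were kept.

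After cyclic loess the ligands had 12 of 28 probe sets higher and 2 lower, with a median of 0.16, and the difference of Wnt7b was 0.80, that of Wnt7a 0.60 and that of Wnt2 0.46. In every alternative fit of probe sets that held them, 22 of the 40 called members kept their call, and dim members were not held by all 15. They included probe sets of Wnt2b, Wnt6, Wnt7a, Wnt7b, Wnt8a, Wnt9b, Wnt10a, Wnt10b, Fzd9, Lgr5 and Sfrp5 that were higher. Lower were probe sets of Wnt5a, Fzd4, Fzd5, Fzd7, Dkk3, Nkd1 and Apcdd1. A kept call holds for a probe set, and other probe sets of Fzd5 and Nkd1 were called higher. The other Dkk3 probe set was called higher after cyclic loess (0.28). Fzd4, Fzd7, Apcdd1, Wnt7a and Lgr5 each had a probe set without a call. When the probe sets of a gene were averaged, Fzd7 (-0.15, limma adjusted p = 0.0536) and Nkd1 (-0.07, limma adjusted p = 0.264) were not called.

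**Figure D4:**
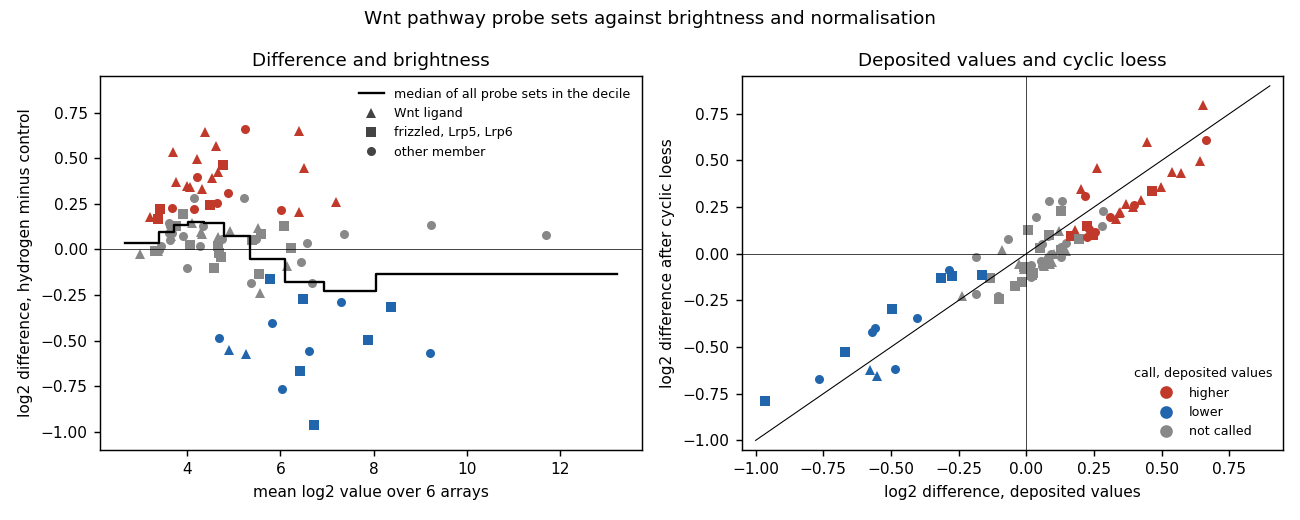
Left, the log2 difference of each member probe set against its mean log2 value over 6 arrays, with the median of all probe sets in each decile as a stepped line; right, the difference after cyclic loess against that of the deposited values. The stepped line stands at 0.15 in the fourth decile and at -0.23 in the ninth, and ligands are drawn as triangles.

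The rest of the pathway was followed in 5 lists of other genes, of which 90 of 97 were measured by 184 probe sets. Of these 32 were higher (17.4%) and 44 lower (23.9%), beside 24.3% and 22.8% of all probe sets, with a median of 0.005. After cyclic loess 21 (11.4%) were higher and 30 (16.3%) lower, beside 17.0% and 18.4% of all. Of the 44 lower ones, 40 were among the 99 above the array's median brightness, where 38.2% of all probe sets were lower. Without hydrogen replicate 2, 18 of the 184 were higher (9.78%), beside 17.7% of all probe sets. The cytoplasmic transducers had 8 of 60 probe sets higher (13.3%) and 18 lower (30%), with a median of -0.02. Of the 18 lower ones, 17 were above the array's median brightness. Gsk3b, the kinase that marks beta-catenin for breakdown, was lower with 3 of 4 probe sets (largest -0.72), and Csnk1g3, a casein kinase, was lower by 0.62 on the log2 scale. Apc2, a relative of the scaffold Apc, was higher with both probe sets named by the rule (0.41 and 0.44), and Tnks, a tankyrase that destabilises axin, was higher by 0.32. The nuclear partners had 4 of 30 higher (13.3%) and 11 lower (36.7%), with a median of -0.07, and 10 of the 11 were above that brightness. There the coactivator Bcl9l (0.31) and the corepressor Tle3 (0.19) were higher, and the kinase Nlk (-0.49) and the coactivator Crebbp (-0.48) were lower. The transcription factor Tcf7l2 was called both ways, at 0.19 and -0.78 with different probe sets. After cyclic loess Bcl9l (0.18), Tle3 (0.08) and the higher Tcf7l2 probe set (0.07) were not called, while Nlk and Crebbp were both at -0.29 and called.

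The list of co-receptors, other receptors and planar polarity genes had 6 of 24 probe sets higher (25%) and 5 lower (20.8%), with a median of -0.03. Over all probe sets the shares were 24.3% and 22.8%. Fuz, a planar polarity effector needed for cilia, read 4.31, 4.08 and 4.20 in control and 5.29, 5.07 and 5.28 in hydrogen mice (1.02, limma adjusted p = 0.000243). The difference was larger than that of any member, and after cyclic loess it was 0.89. Vangl1 (0.46) and Vangl2 (0.22), core polarity proteins, were higher, the latter not after cyclic loess (0.16), and the formin Daam1 (-0.83), the brain vessel co-receptor Adgra2 (-0.55) and the Wnt5a receptor Ror1 (-0.55) were lower. Secretion and extracellular genes had 4 of 23 higher and 4 lower (17.4% each), with a median of 0.08. Rspo4 (0.57) and Draxin (0.48) were higher and Reck (-0.40) lower. Wls, the carrier that brings Wnt proteins to the surface, was lower with 2 probe sets (-0.27 and -0.18), which after cyclic loess read -0.07 and -0.01 and were not called. Other target genes had 10 of 47 higher (21.3%) and 6 lower (12.8%), with a median of 0.09. Mycn (0.51), Fgf9 (0.40) and Sox9 (0.30) were higher. Jun was lower with 2 probe sets (-0.52 and -0.33), and so was Bambi (-0.40), which after cyclic loess was at -0.21 without a call.

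Markers of cells that make or receive Wnt proteins were followed in lists, with each gene read by its brightest probe set. A fit with 1 probe set per gene called 26.1% of all genes higher and 26.4% lower. Above the array's median brightness, 16.7% of all probe sets were higher and 38.2% lower. The gene counts of a list have to be read against those shares. Each list was summed on the linear scale over its genes and is given as a log2 level. Cartilage and large airway wall markers ran from 7.06 to 7.19 in control and from 7.42 to 7.50 in hydrogen mice, with 5 of 8 genes higher and none lower. Of these 8 genes, 7 were at or below the array's median brightness, where 32.0% of all probe sets were higher. With cyclic loess the higher cartilage probe sets went from 5 to 3 of 9, and the median over genes from 0.29 to 0.17. Club cell markers ran from 15.19 to 15.29 and from 14.76 to 14.96, with 8 of 11 lower. Ciliated cell markers ran from 10.53 to 10.83 and from 10.25 to 10.35, with 6 of 8 lower. Airway and vascular smooth muscle markers ran from 11.72 to 11.81 and from 11.36 to 11.64, with 7 of 9 lower. With cyclic loess the lower smooth muscle probe sets went from 9 to 5 of 19. Lower club cell probe sets went from 9 to 7 of 12 and ciliated ones from 6 to 4 of 10.

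Among other lists, alveolar type 1 markers fell in 6 of 9 genes (14.25 to 14.27 against 14.09 to 14.11), and alveolar type 2 markers rose in 3 of 8 (14.44 to 14.50 against 14.51 to 14.52). With cyclic loess the lower alveolar type 1 probe sets went from 11 to 6 of 17 and the higher ones from 0 to 2. Fibroblast markers rose in 3 and fell in 6 of 16 genes (13.77 to 13.84 against 13.70 to 13.78), and mesothelial markers rose in 2 and fell in 1 of 9 (9.90 to 10.28 against 10.07 to 10.14). Endothelial markers fell in 4 of 12 (13.37 to 13.47 against 13.21 to 13.39), and macrophage markers fell in 3 of 11 (10.73 to 11.20 against 10.66 to 10.90). T cell markers rose in 7 and fell in 1 of 13 (8.87 to 8.98 against 9.12 to 9.22). Cardiac muscle markers rose in 2 and fell in 12 of 14 (12.94 to 13.24 against 10.02 to 11.98), and adipocyte markers rose in 2 and fell in 1 of 5 (10.16 to 10.45 against 7.56 to 10.26). The groups did not overlap for the cartilage, club, ciliated, smooth muscle, alveolar type 1, alveolar type 2, T cell and cardiac muscle lists. Of single probe sets over the array, 30.9% had all hydrogen mice above all control mice and 26.4% had them below. No list has a true zero on this scale. The part of these cell types in the differences of the Wnt genes was not tested.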

How the data were processed

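RNA from 6 lungs was measured on MG-430 PM arrays, per the labels' protocols. The deposited values are on a log2 scale. RMA and Affymetrix Expression Console are named per the submitters' processing notes, and whether all arrays were normalised in 1 run is not given in the sources used here. The 45141 rows included 104 control probe sets, which were left out. The other 45037 were fitted in limma 3.58.1 (R 4.3.3; lmFit and eBayes without trend), hydrogen minus control, with Benjamini-Hochberg adjustment over all of them and calls at an adjusted p under 0.05, two-sided. The script was tested on simulated data. An exact permutation test of 3 against 3 mice cannot go below p = 0.1, so none is given. Gene names came from GEO's platform annotation: 28898 probe sets had 1 gene, 551 several and 15588 none. All 86 member probe sets matched RefSeq by Entrez ID. Figures were drawn with Python 3.11.15 and matplotlib 3.10.9.

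The members and the gene lists were chosen with earlier results of these data known. Values on every array are given for the 10 called members with the largest difference in each direction whose groups do not overlap, for the brightest probe set of each of Axin2, Lef1, Nkd1, Apcdd1, Lgr5, Rnf43, Znrf3, Notum and Ctnnb1, and for members called in opposite directions. Wnt2 and Wif1 were added after their values were seen, as was Fuz. Of each pathway list, up to 3 called probe sets with the smallest p per direction are named. Alternatives were a renewed quantile normalisation, cyclic loess, median centring, probe sets above the median only, 1 or the mean probe set per gene, no shared probe sets, a trended robust prior, array weights, a replicate block and leaving out each array. The labels do not say that replicates had separate housing, so p-values measure the spread between these mice.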

Additional observations from a re-analysis of the deposited data

How the results depend on the processing

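Limits: 3 mice a group, whole-lung RNA, and array distributions that differ between the groups. Against 26 higher member probe sets, cyclic loess gave 17, median centring 16, leaving out dim probe sets 7 of 38, the mean of each gene's probe sets 17 of 52 genes, and leaving out 1 array 17 to 26. Against 14 lower members, the mean per gene gave 7 and leaving out 1 array 11 to 14. Median centring gave 16 higher and 19 lower members, and 6377 higher and 14571 lower of all probe sets against 10956 and 10257 on the deposited values. Against 32 higher probe sets of the pathway lists, cyclic loess gave 21, median centring 18, leaving out dim probe sets 8, 1 probe set per gene 14, the mean per gene 12, and leaving out 1 array 18 to 34, with 18 without hydrogen replicate 2. Against 44 lower ones, renewed quantile normalisation gave 29, 1 probe set per gene 26, the mean per gene 24, and leaving out 1 array 34 to 40. Median centring moved that count up, to 65 of 184 (35.3%), beside 32.4% of all probe sets. Leaving out dim probe sets, or reading 1 value per gene, tests fewer features. For the other moves the cause was not tested. Signs turned for Lef1 with renewed quantile normalisation (-0.0047) and cyclic loess (-0.0008). Rnf43 turned with renewed quantile normalisation (-0.11), cyclic loess (-0.12), median centring (-0.0733), and without hydrogen replicate 2 (-0.0817) or 3 (-0.0017), and without replicate 1 of that group it was 0.1333. Axin2 turned with median centring (-0.0533) and without hydrogen replicate 2 (-0.0067; without replicate 1 it was 0.0833), and Ctnnb1 with median centring (-0.01). The gene mean turned both higher Nkd1 probe sets (-0.0717) and the higher Fzd5 probe set (-0.36). With the replicate number as a block, 25 members were higher and 13 lower, and of the pathway lists 29 and 42, and the calls of Wnt2, Wnt8b, Fzd3 and Lrp6 were lost. The deviations of same-numbered arrays correlated at 0.08, 0.03 and -0.11, so the numbers were not shown to pair the mice. Array data carry no read depth, and the number of arrays limits the precision.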

Other observations

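The RefSeq gene order places 4 pairs of Wnt genes next to each other. Wnt6 and Wnt10a were both higher (largest differences 0.64 and 0.54), and so were Wnt10b and Wnt1 (0.42 and 0.34). Wnt9b was higher (0.57) and its neighbour Wnt3 was not called (-0.03). Wnt3a was higher (0.20) and its neighbour Wnt9a was not called (-0.24). The pairs were looked at after the values of these genes were seen, and no test was made.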
